A study of Amphimedon queenslandica and Mnemiopsis leidyi and Nematostella vectensis with 36 samples.

Results

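This account concerns regions of the genome of the marine sponge Amphimedon queenslandica where proteins attached to DNA in a test tube. At each, GLI and at least 1 of EGR and SP41, all zinc finger proteins, had a peak, and neither NRF nor YY1 had one. The peaks of 16 lists were pooled, and peaks that shared at least 1 bp on a contig were merged into 52356 regions. A region was taken when it held a GLI peak and an EGR or SP41 peak and no NRF or YY1 peak. This gave 3685 regions, 32.5% of the 11328 regions with a GLI peak and 7.04% of all regions. Over all regions, with or without NRF or YY1, 54.5% held an EGR or SP41 peak and 21.6% a GLI peak. With NRF or YY1 likewise allowed, 45.9% of the regions with a GLI peak held an EGR or SP41 peak. The regions were chosen by the peak calls themselves, so the presence and the strength of GLI, EGR and SP41 peaks are given as descriptions, without a test.

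In DAP-seq, a transcription factor is produced in a cell-free system, coupled to the HaloTag, a protein handle for pulling it out of solution, and mixed with fragments of genomic DNA, and the DNA that it holds is sequenced. DNA of swimming larvae at 0 h, from individuals collected at Heron Island, was sheared to a mean of 200 bp. It was used either after 11 cycles of PCR, called amplified DNA here (ampDAP-seq), or as it was, called native DNA (DAP-seq). Copying by PCR does not carry over cytosine methylation, so native DNA keeps it and amplified DNA has lost it. The groups used here were GLI DBD, EGR DBD, SP41 full length and SP41 DBD (DBD, DNA binding domain; part of the labels write SP for SP41), each on amplified and on native DNA, with 1 library per group. An incubation with the HaloTag alone on the same kind of DNA was the control. GLI and EGR were thus studied as isolated domains, outside the cell and on DNA without nucleosomes. Depth ranged from 2161903 to 2945461 usable fragments over the 8 libraries, and the controls had 2865511 on amplified and 2626764 on native DNA. With 1 library per group no difference between groups could be set against replicate error and no test was made. Intervals are 95% Wilson intervals over regions, which cover counting error only, and regions of the same libraries are not independent.

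GLI proteins are the transcription factors at the end of the Hedgehog signalling pathway in bilaterian animals and bind DNA through a row of zinc fingers. EGR proteins are early growth response factors in vertebrates, and SP proteins are relatives of the Krüppel-like factors. Members of the EGR and SP families read GC-rich sites with a short row of zinc fingers in vertebrates, and such sites often contain CG dinucleotides, the place of most cytosine methylation in animals. No sequence of the regions was read here, so no statement on motifs is made.

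GLI was found with both EGR and SP41 in 1691 regions (45.9%, 44.3 to 47.5), with SP41 and no EGR peak in 1383 (37.5%, 36.0 to 39.1) and with EGR and no SP41 peak in 611 (16.6%, 15.4 to 17.8). In the 19008 regions with EGR or SP41 and without GLI, NRF and YY1 the shares were 25.2% with both, 55.0% with SP41 and no EGR peak and 19.8% with EGR and no SP41 peak. SP41 was thus present in 83.4% of the shared regions and in 80.2% of those without GLI, and EGR in 62.5% and 45.0%. SP41 was represented by 4 lists and EGR by 2, which gives SP41 more chances to be present. The regions with all 3 factors were the widest, with a median of 380 bp, against 262 bp with SP41 and 258 bp with EGR. The shared regions as a whole had a median width of 307 bp, and regions with GLI alone had 175 bp. A merged region grows with every peak it joins, so this order is partly made by the merge. Without the SP41 DBD lists there were 1127 regions of GLI with EGR and 616 of GLI with SP41.

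In all 3 classes, GLI was found on native DNA more often than on amplified DNA. Of the 3685 regions, 690 (18.7%, 17.5 to 20.0) had a GLI peak on amplified DNA only, 824 (22.4%, 21.0 to 23.7) on both kinds of DNA and 2171 (58.9%, 57.3 to 60.5) on native DNA only. The GLI list of amplified DNA had 4837 peaks and that of native DNA 8828, so more native regions were to be had. Regions with EGR and SP41 held the smallest share with GLI on amplified DNA only, 14.3% (12.7 to 16.1), against 20.5% (17.4 to 23.8) with EGR and 23.4% (21.2 to 25.7) with SP41. GLI peaks on both kinds of DNA were present in 21.0 to 23.2% of the regions of each class, and in 15.7% (14.7 to 16.7) of the 4997 regions with GLI alone. With each list longer than 4837 peaks cut to its 4837 strongest, 617 shared regions had GLI on amplified DNA only and 837 on native DNA only, out of 1913.

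**Figure D1:**
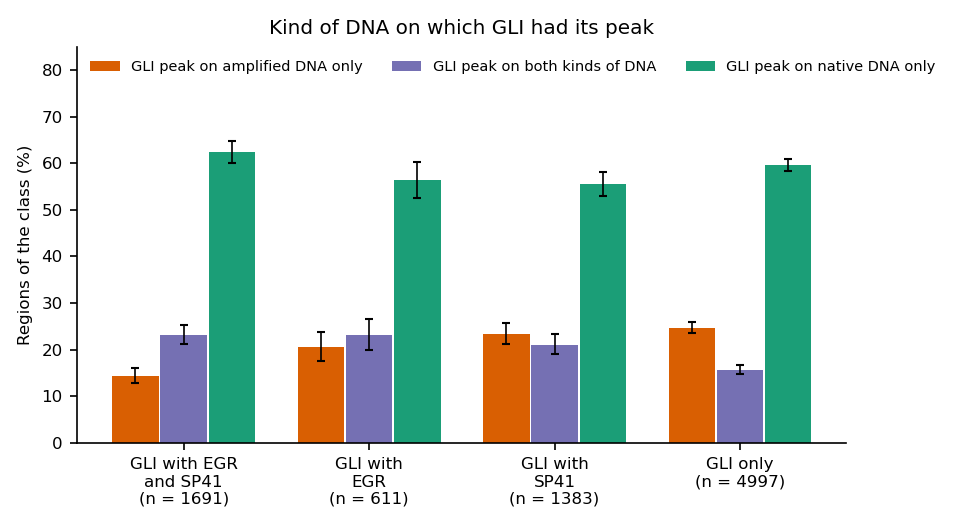
Share of regions (%) in which GLI had a peak on amplified DNA only, on both kinds of DNA or on native DNA only, for the 3 classes of shared regions and for regions with GLI alone. Bars are shares of the regions of a class, lines are 95% Wilson intervals, and native DNA only is the tallest bar in each class, at 55.6 to 62.5%.

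EGR was found more often on native DNA, as GLI was, and SP41 more often on amplified DNA. EGR had a peak on amplified DNA in 1248 of the shared regions and on native DNA in 2205, a ratio of 0.566. SP41 had 1590 regions on amplified and 1240 on native DNA for the full length protein, a ratio of 1.28, and 2358 and 1961 for the DBD, a ratio of 1.20. GLI had 1514 and 2995, a ratio of 0.506. These ratios had the same signs as those of the whole lists. On the log2 scale the SP41 full length ratio was 0.36 in the shared regions and 0.71 in its whole list, and that of EGR was −0.82 in the shared regions and −1.02 in its whole list. Of the native EGR regions 52.2% also had EGR on amplified DNA, and 84.4% of the native SP41 full length regions and 73.0% of the native SP41 DBD regions had SP41 of the same construct there. For GLI this share was 27.5%. In the other direction, 92.2% of the amplified EGR regions also had EGR on native DNA. That share was 65.8% for SP41 full length, 60.7% for SP41 DBD and 54.4% for GLI. Both directions depend on the lengths of the lists compared.

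The kind of DNA on which GLI was found went together with the kind on which its partner was found. Where GLI was on amplified DNA only, SP41 of either construct was on native DNA in 240 of 565 regions (42.5%, 38.5 to 46.6). Where GLI was on native DNA only, SP41 was on native DNA in 1471 of 1826 (80.6%, 78.7 to 82.3), and where GLI was on both kinds, in 456 of 683 (66.8%, 63.1 to 70.2). The 15253 regions with SP41 and without GLI, NRF and YY1 lay between these values, at 55.8%. On amplified DNA, SP41 was present in 97.5% of the regions with GLI on amplified DNA only and in 78.2% of those with GLI on native DNA only, against 81.3% without GLI.

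Every region counted held its partner on at least 1 kind of DNA by the choice of regions. The shares on amplified and on native DNA are therefore tied to each other. EGR showed the same order on both kinds of DNA. It had a peak on amplified DNA in 250 of 367 regions with GLI on amplified DNA only (68.1%, 63.2 to 72.7) and in 653 of 1402 with GLI on native DNA only (46.6%, 44.0 to 49.2). In 8549 regions with EGR and without GLI, NRF and YY1 the share was 41.6%. On native DNA, EGR was present in 85.6% (81.6 to 88.8) of the regions with GLI on amplified DNA only and in 98.7% (98.0 to 99.2) of those with GLI on native DNA only. A single control library served all lists of 1 kind of DNA, and its part in this order was not tested. The order was the same with each list longer than 4837 peaks cut to its 4837 strongest. SP41 was then on native DNA in 49.4% of regions with GLI on amplified DNA only and 86.7% with GLI on native DNA only. EGR was on amplified DNA in 89.8 and 66.7%, in the same order of GLI. With peaks under 5-fold enrichment left out, the SP41 shares on native DNA were 15.9 and 71.5%.

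**Figure D2:**
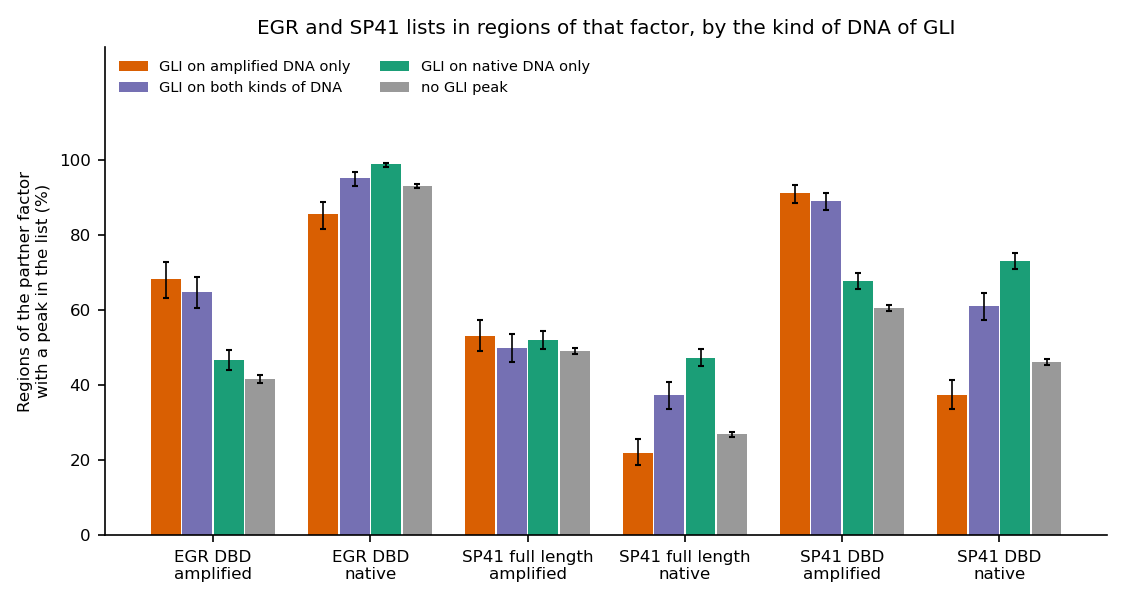
Share (%) of the regions of a partner factor that held a peak in each of its lists. Regions are split by their GLI peaks: on amplified DNA only, on both kinds of DNA, on native DNA only or no GLI peak. Lines are 95% Wilson intervals. The native lists stand higher where GLI was on native DNA, 73.1% against 37.3% for SP41 DBD, and of the amplified lists that of SP41 full length is nearly level, at 49.9 to 53.1% with GLI.

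The SP41 constructs gave different shares beside GLI. SP41 DBD on amplified DNA was present in 91.2% (88.5 to 93.2) of the SP41 regions with GLI on amplified DNA only and in 67.6% (65.5 to 69.7) of those with GLI on native DNA only, whereas SP41 full length on amplified DNA was present in 53.1% (49.0 to 57.2) and 52.0% (49.7 to 54.3). On native DNA both constructs had lower shares with GLI on amplified DNA only, 37.3% for the DBD and 21.9% for the full length protein, than with GLI on native DNA only, 73.1% and 47.2%. Among the 3074 shared regions with SP41, both constructs were present in 52.0% (50.2 to 53.7), the DBD alone in 42.0% and the full length protein alone in 6.05% (5.26 to 6.95). In SP41 regions without GLI, NRF and YY1 the full length protein was alone in 19.2% (18.5 to 19.8). In the regions with EGR as well, both SP41 constructs were present in 65.1%, against 35.9% in those without EGR.

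GLI and a partner had peaks on the same kind of DNA in 3390 of the 3685 regions (92.0%, 91.1 to 92.8), in 94.1% of the regions with EGR and in 88.0% of those with SP41. GLI was on native DNA in 2995 of the 3685 regions and EGR in 2205 of its 2302, so most regions could meet on native DNA, and lists of 1 kind of DNA share a control. Whether the share exceeds what these list sizes give was not tested. In the other regions no pair of libraries of 1 kind of DNA held both. Of the 1691 regions with all 3 factors, 426 (25.2%, 23.2 to 27.3) had all 3 on amplified DNA and 1222 (72.3%, 70.1 to 74.3) had all 3 on native DNA.

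The 8 lists combined in 137 ways of the 189 that the choice of regions allows. The most frequent was a region held by every list of EGR and SP41 and by GLI on native DNA, without GLI on amplified DNA, with 314 regions (8.52%). Next came GLI with EGR on native DNA and nothing else in 251 regions, GLI with SP41 DBD on native DNA in 182 and the same pair on amplified DNA in 156. All 8 lists met in 133 regions, and all EGR and SP41 lists with GLI on amplified DNA only in 49. Thus 496 regions held all 6 partner lists. This was 29.3% (27.2 to 31.5) of the regions with GLI, EGR and SP41, whereas 15.2% (14.2 to 16.2) of the 4794 regions with EGR and SP41 and without GLI, NRF and YY1 held all 6. The former had a median width of 380 bp and the latter 270 bp, and a GLI peak can itself join partner peaks. The part of width and of such joining was not tested. At the other end, 910 regions (24.7%) were in only 2 lists. The 314 regions became 200 at a −log10 q of at least 5, 12 at a fold enrichment of at least 5 and 111 with lists of equal length, and the 133 regions in all lists became 80, 1 and 66.

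**Figure D3:**
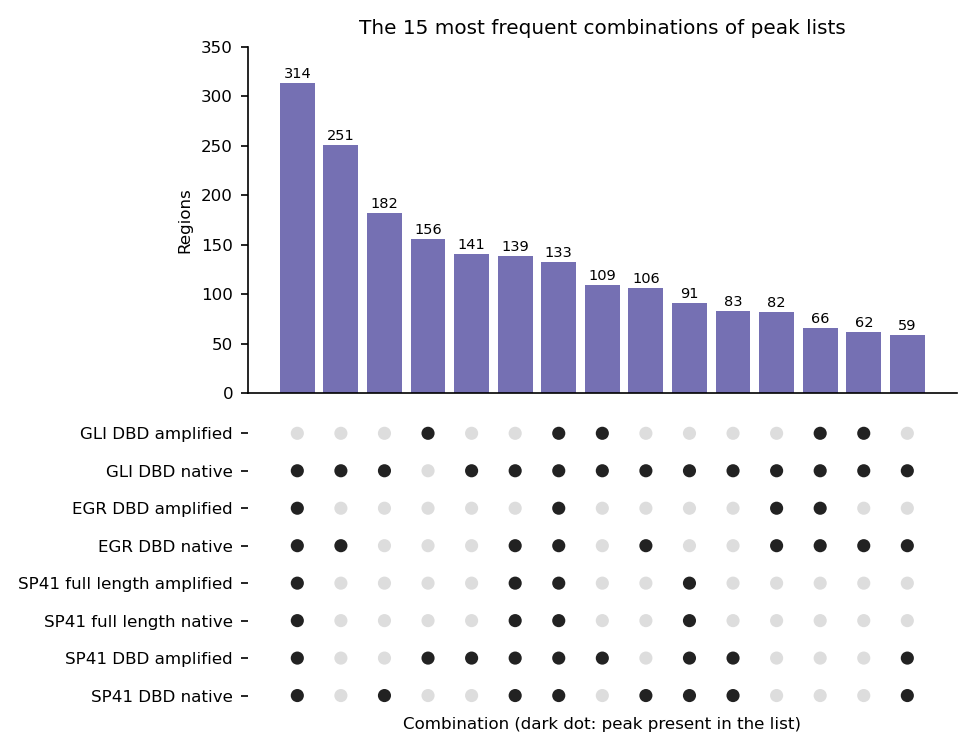
The 15 most frequent combinations of the 8 peak lists among the shared regions. Bars give the number of regions, and dark dots mark the lists with a peak. GLI on native DNA is part of 14 of the 15, and the tallest bar, 314 regions, lacks only GLI on amplified DNA.

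GLI was found more often where more partner lists met. Among regions with EGR or SP41 and without NRF and YY1, a GLI peak was present in 10.7% (10.1 to 11.3) of the 10608 regions held by 1 partner list, in 15.8% of those held by 2, in 18.4% by 3, in 21.5% by 4, in 28.7% by 5 and in 40.5% (37.8 to 43.3) of the 1224 held by all 6. The increase was present on both kinds of DNA, with 4.55 and 14.9% for GLI on amplified DNA and 8.21 and 36.5% for GLI on native DNA at 1 and 6 lists. Regions of more lists were wider also without GLI, with a median of 163 bp at 1 list and 378.5 bp at 6, and the part of width in the increase was not tested.

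For GLI, the strength of the peak was given by fold enrichment and by rank. At 1 and at 6 partner lists the median fold enrichment of GLI, which is the authors' ratio of the coverage at a summit to that expected from the control nearby, was 3.69 and 3.36 on amplified DNA and 3.84 and 3.79 on native DNA. By −log10 q, 25.9% of the GLI peaks at 1 list and 29.7% at 6 lists were in the strongest 25% of the amplified list, and 28.9% and 33.6% in that of the native list, with values between 24.7 and 31.5% in the other steps. The GLI peaks in shared regions had medians close to those of all GLI peaks. Their median was 3.63 on amplified DNA, with a range of 1.47 to 10.3, and 3.79 on native DNA, with a range of 1.55 to 10.6, against 3.69 and 3.77 in the whole lists. At least 5-fold enrichment was reached by 230 of 1517 GLI peaks on amplified DNA (15.2%) and 463 of 3030 on native DNA (15.3%), beside 15.2% and 14.1% of all peaks of these lists.

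Over all shared regions, a larger share of partner peaks than of GLI peaks was in the strongest 25% of their list. In regions with 1 partner factor this was not so. By −log10 q, 39.4% of the SP41 full length peaks on amplified and 37.3% of those on native DNA in shared regions were in the strongest 25% of their list, as were 36.1% and 34.5% of the SP41 DBD peaks, 35.7% and 38.3% of the EGR peaks and 27.2% and 28.5% of the GLI peaks. For the partners, the shares were higher in the regions with both partners than in those with 1. With both, 48.0% of the SP41 full length peaks on amplified DNA and 45.7% of the EGR peaks on native DNA were in the strongest 25%, whereas in regions with EGR and no SP41 peak 16.5% of the EGR peaks on amplified and 15.4% on native DNA were. GLI had its highest shares in the regions with EGR and no SP41 peak, 29.7% on amplified and 35.0% on native DNA, beside 26.7% and 29.4% with both partners. In regions with SP41 and no EGR peak, GLI had 26.7% on amplified and 24.2% on native DNA. SP41 full length had 21.0% and 19.7% there, and SP41 DBD 25.5% and 21.2%. In EGR and SP41 regions without GLI the EGR shares were 25.1% on amplified and 28.9% on native DNA. The share of EGR peaks of at least 5-fold was 48.0% on amplified and 64.3% on native DNA in shared regions, beside 50.8% and 56.8% in the whole lists. For SP41 full length it was 52.5% and 32.9%, beside 51.8% and 25.2%, and for SP41 DBD 27.3% and 19.9%, beside 24.3% and 15.3%.

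**Figure D4:**
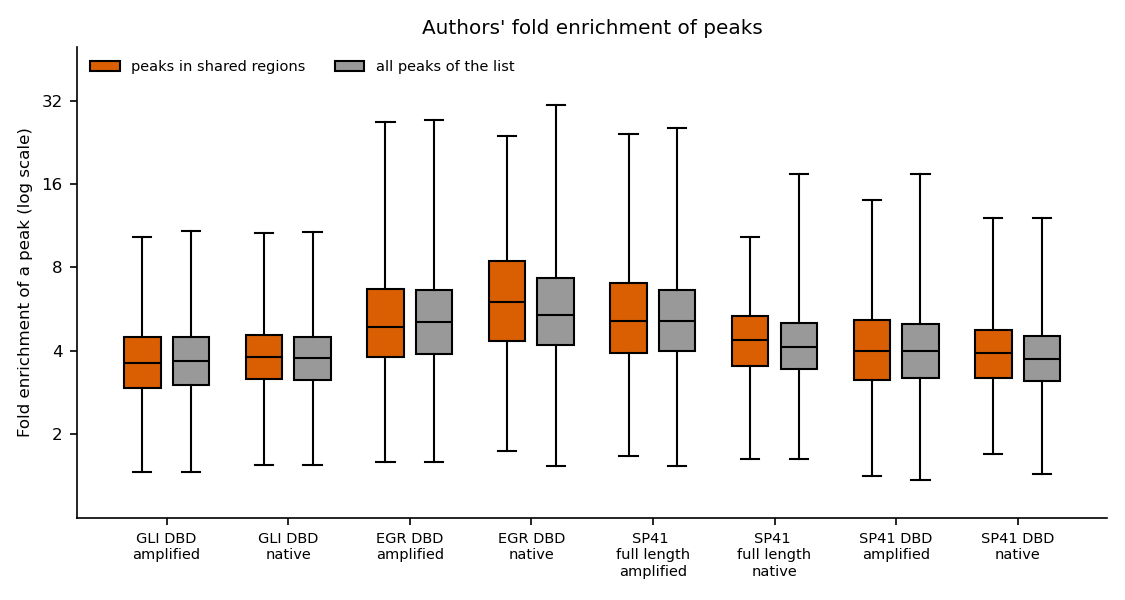
The authors' fold enrichment of peaks in shared regions and of all peaks of the same list, on a log scale. Boxes span the quartiles with the median as a line, and whiskers reach the lowest and highest peak. The boxes of GLI in shared regions and in its whole lists nearly coincide, with medians of 3.63 and 3.69 on amplified and 3.79 and 3.77 on native DNA. The lists differ in control and depth, so boxes of different lists are not on a common scale.

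Across regions, the fold enrichment of GLI had low rank correlations with that of its partners on the same DNA. Spearman's rho was 0.212 with EGR over 595 regions and 0.400 with SP41 DBD over 1123 regions on amplified DNA, and 0.125 with EGR over 1891 regions and 0.261 with SP41 DBD over 1750 regions on native DNA. With SP41 full length it was 0.261 over 641 regions on amplified and 0.221 over 1116 regions on native DNA. EGR and SP41 DBD had 0.456 over 895 regions on amplified and 0.412 over 1263 regions on native DNA. GLI on amplified against GLI on native DNA had 0.200 over 824 regions. These values describe regions that share libraries and, on the same DNA, the control.

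The summits of GLI and of its partners, the positions of highest pileup, lay close together in many regions. In all 3685 regions a GLI peak overlapped a partner peak, so the choice of regions bounds these distances, which are given as a description. The median distance from a GLI to an EGR summit in the same region was 40 bp (quartiles 13 and 130) over 4560 pairs, and from a GLI to an SP41 summit 40 bp (14 and 131) over 9308 pairs. EGR and SP41 summits were 31 bp apart in the median over 8768 pairs. Summits of GLI on amplified and on native DNA were 20 bp apart (7 and 49.5) over 835 pairs, and those of EGR 12 bp. Only regions with the construct on both kinds of DNA enter here. Spread between libraries and any effect of the kind of DNA cannot be told apart in these distances. Within 50 bp lay 55.6% of the GLI and EGR pairs and 55.3% of the GLI and SP41 pairs, against 75.3% of the pairs of GLI with itself. The authors' summits coincided to the base in 73 GLI and EGR pairs.

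GLI and partner summits were nearer to each other on amplified than on native DNA. The median distances were 29 bp and 46 bp from GLI to EGR, 29 bp and 53 bp from GLI to SP41 DBD, and 29.5 bp and 49 bp from GLI to SP41 full length. The peaks themselves were shorter on amplified DNA, with a median length of 175 bp against 198 bp for GLI and 198 bp against 226 bp for EGR in shared regions, and the part of peak length was not tested. Pairs from opposite kinds of DNA and pairs from the same kind had medians of 38 and 41 bp for EGR and 41 and 40 bp for SP41. The part of the control in these distances was not tested. In regions with 1 partner factor the medians were 32 bp to EGR and 34 bp to SP41, and in regions with both partners 43 and 45 bp. With peaks under 5-fold left out, the distances were 22 bp to EGR and 20 bp to SP41.

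**Figure D5:**
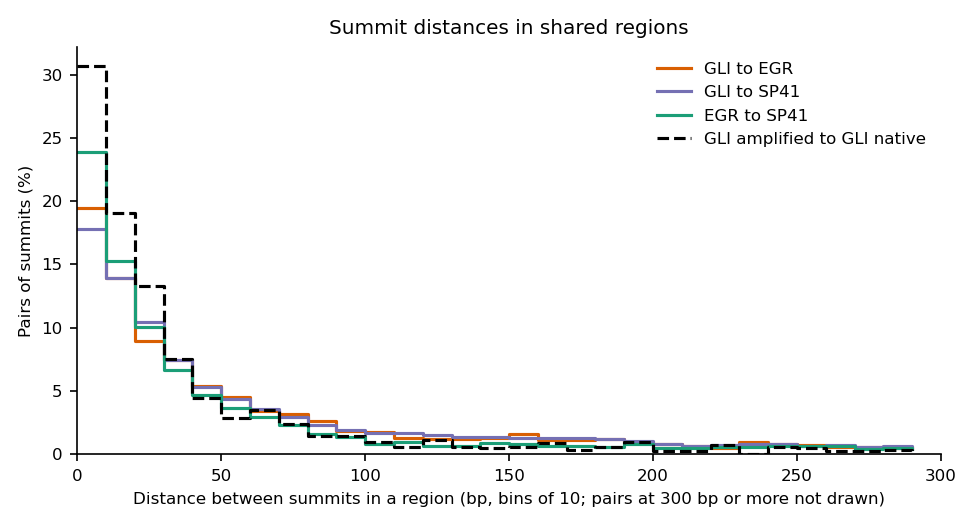
Distances between summits in shared regions, in bp and bins of 10 bp, as a share of all pairs (%). The curves of GLI to EGR and GLI to SP41 nearly coincide and fall off more slowly than that of GLI on amplified to GLI on native DNA, of whose pairs 75.3% lie within 50 bp.

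The regions were chosen by shared bases of peaks, so the extent of overlap is also only a description. The partner peak with most overlap covered a median of 93.6% of a GLI peak, and 1828 of the 4547 GLI peaks (40.2%) were covered completely. Only 5 of the shared regions rested on an overlap of 1 to 5 bp between GLI and partner, and their GLI peaks had a median fold enrichment of 2.98. Just outside the rule, 8 regions with GLI alone had an EGR or SP41 peak within 5 bp, with a median fold enrichment of 3.65. In 109 shared regions (2.96%) all GLI peaks had a −log10 q below 2, near the authors' cutoff. This share is not given for the other GLI regions, so it cannot be compared. The median −log10 q of GLI peaks was 6.59 on amplified and 6.38 on native DNA in shared regions. In regions with GLI alone it was 6.10 and 5.69.

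Single regions show the range of these arrangements. In the sentences that follow, values are the authors' fold enrichment, positions are in bp from the start of a contig as numbered by the authors, in an assembly of unstated build, and ranks are by −log10 q within a list. At contig 9367, positions 22 to 519, GLI had its highest ranked peak on either kind of DNA, 5.17-fold on amplified and 5.61-fold on native DNA. SP41 full length had 9.31-fold and 3.75-fold there, SP41 DBD 5.90-fold and 2.18-fold, and EGR 3.30-fold on native DNA alone. The GLI summits were at 128 and 133 and the SP41 full length summits at 434 and 422. SP41 DBD had its summits at 427 on amplified and at 130 on native DNA, the latter near those of GLI. At contig 13146, positions 94360 to 94599, GLI reached 10.3-fold on amplified and 3.19-fold on native DNA, with EGR at 8.35-fold and SP41 DBD at 5.19-fold on amplified DNA. The GLI and EGR summits on amplified DNA were at 94510 and 94511. At contig 13377, positions 194339 to 194587, GLI had 4.08-fold on amplified and 6.68-fold on native DNA, and all summits of its 5 lists lay within 23 bp.

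Regions with a GLI peak called on 1 kind of DNA only were found in each class. With EGR and SP41, GLI was on amplified DNA only at contig 13455, positions 167661 to 167872, at 5.66-fold, although EGR was there on both kinds of DNA, at 4.28-fold and 5.22-fold. GLI was on native DNA only at contig 1869, positions 397 to 609, at 8.13-fold, with EGR at 3.26-fold and SP41 DBD at 4.12-fold on native DNA. Among regions with EGR and no SP41 peak, contig 5896, positions 272 to 457, had GLI at 10.6-fold and EGR at 5.99-fold on native DNA, with summits at 340 and 341. Contig 13063, positions 32266 to 32529, had GLI at 5.15-fold and EGR at 2.53-fold on native DNA. Contig 13316, positions 48628 to 48874, had GLI on amplified DNA only, at 5.99-fold, with EGR at 3.64-fold on amplified and 2.48-fold on native DNA. At contig 13433, positions 220770 to 221155, GLI had 7.73-fold on amplified and 4.35-fold on native DNA and EGR the opposite order, 3.99-fold and 8.74-fold, and the GLI summit at 220882 was apart from the EGR summit at 221065 on amplified DNA.

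The 4 regions with SP41 and no EGR peak chosen by the −log10 q of GLI held the DBD of SP41 on amplified DNA. At contig 12686, positions 12659 to 12810, GLI had 5.15-fold and SP41 DBD 8.08-fold on amplified DNA, with summits at 12704 and 12705 and no peak on native DNA. At contig 10720, positions 219 to 410, GLI was on native DNA at 6.21-fold and SP41 DBD on amplified DNA at 4.60-fold, with summits at 277 and 279, so no library pair of 1 kind of DNA held both. GLI had 6.99-fold on amplified and 4.47-fold on native DNA at contig 9958, positions 1046 to 1428, and 3.44-fold and 4.59-fold at contig 8359, positions 878 to 1067. SP41 DBD had 2.33-fold and 3.33-fold on amplified DNA in these 2 regions.

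Among the 133 regions in all 8 lists, the median range between the outermost of the 8 strongest summits was 121 bp (quartiles 53 and 294). The most compact of the 5 with the highest lowest −log10 q was at contig 13284, positions 20849 to 21113, where the 8 summits lay within 32 bp. GLI had 5.00-fold on amplified and 4.70-fold on native DNA there, EGR 8.22-fold and 10.7-fold, SP41 full length 15.1-fold and 7.13-fold, and SP41 DBD 9.54-fold and 5.04-fold. At contig 11769, positions 6770 to 7071, GLI had 3.18-fold and 4.07-fold and EGR 6.17-fold and 12.1-fold, within 67 bp. The region at contig 13445, positions 208388 to 209573, was 1186 bp wide, with EGR summits at 209158 and 209147 and GLI summits at 209458 and 209482. At contig 13478, positions 181165 to 181737, 7 of the 8 summits lay between 181563 and 181652, and that of SP41 DBD on native DNA was at 181249. The widest shared region was at contig 13200, positions 49436 to 52393, with 15 peaks of the 8 lists. Its strongest EGR peak on native DNA, 13.7-fold, had its summit at 49642, whereas the GLI summits were at 51542 and 51519.

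The shared regions lay on 966 contigs, of 1960 with a GLI region and 5516 with any region. The contigs with most were 13521 with 70 of 750 regions, 13522 with 66 of 896 and 13514 with 61 of 588. These were 33.0%, 31.3% and 43.6% of the GLI regions of those contigs, beside 32.5% over all contigs. A single shared region was found on 537 contigs. Neighbouring shared regions on a contig were a median of 11924 bp apart, and 222 of 2719 gaps (8.16%) were under 1000 bp. Gaps between all GLI regions are not given for comparison.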

How the data were processed

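The 16 deposited peak lists with an EGR, GLI, NRF, SP41 or YY1 construct were used. The empty HaloTag entered through the authors' peak calls, and the methylation libraries were not analysed here. Per the file headers, MACS2 2.1.2 was run by the authors on each library alone, with paired fragments, a q cutoff of 0.05 and at most 1 duplicate. The control was the library of the HaloTag alone on the matching kind of DNA, and the larger library of a pair was randomly down-sampled, so weak peaks near the cutoff can change between runs. The aligner and build for these libraries are not given in the sources used here. The deposited pileup is a signal, the coverage in fragments at a summit. The authors give each peak's p-value and q-value on a −log10 scale. The deposited fold enrichment is a ratio of pileup to local background.

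Peaks sharing at least 1 bp were merged. A region's strongest peak per list stood for it in regions named and in correlations. Summit distances used all pairs. Regions were named by −log10 q of GLI within each class, by the lowest −log10 q over the 8 lists, by width and by contig. The members and lists were chosen with earlier results of these data known. The merge was checked on simulated peaks, where 5 of 5 planted counts were recovered, and against bedtools 2.31.1, which also gave 52356 regions. Alternatives were thresholds, list lengths, overlap, width, single constructs, single kinds of DNA and NRF or YY1 kept. RefSeq gene names were left aside because the lists name no genes, and no sequence or motif was analysed here. Python 3.11.15, numpy 2.4.6, pandas 2.3.3, scipy 1.17.1, statsmodels 0.14.6 and matplotlib 3.10.9 were used.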

Additional observations from a re-analysis of the deposited data

Results flagged for a closer look

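The constructs split in direction between the kinds of DNA. The log2 ratio of shared regions with a peak on amplified DNA to those with a peak on native DNA was −0.98 for GLI DBD and −0.82 for EGR DBD, while SP41 had 0.36 as full length protein and 0.27 as DBD. Each value rests on 1 library per kind of DNA, and the difference was not tested. The whole lists had the same signs, with −0.87, −1.02, 0.71 and 0.37.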

How the results depend on the processing

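No paired analysis was possible because each construct and kind of DNA had 1 library and no result comes from a test. The alternatives for the shares of partner lists were added after seeing the data. Requiring that a GLI peak itself overlaps a partner peak changed nothing, by construction.

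In every alternative that gave a value, SP41 was more often on native DNA where GLI was on native DNA only, and EGR more often on amplified DNA where GLI was on amplified DNA only. At a −log10 q of at least 5, 2362 regions were shared, of which 1046 held EGR and SP41 and 848 SP41 without EGR, and GLI was on both kinds of DNA in 475 and on native DNA only in 1402. The SP41 shares on native DNA were 35.8 and 77.3% with GLI on amplified and on native DNA only, the EGR share on amplified DNA was 73.7% with GLI on amplified DNA only, and the GLI distances were 32 bp to EGR and 30 bp to SP41. At a fold enrichment of at least 5, 512 regions were shared, 27.3% of GLI regions, with 171 for EGR and SP41, 163 for EGR and 178 for SP41. GLI was then on amplified DNA only in 148, on both in 34 and on native DNA only in 330. SP41 on native DNA had 15.9 and 71.5%, EGR on amplified DNA 83.3 and 37.9%, and the distances were 22 and 20 bp. With the GLI, EGR and SP41 lists of equal length, 1913 regions were shared (23.6% of GLI regions). Of these, 708 held EGR and SP41 and 784 SP41 without EGR. The shorter NRF and YY1 full length lists were kept whole in this alternative. The YY1 DBD lists were cut, so fewer of their peaks could exclude a region. GLI was on both kinds of DNA in 459 and on native DNA only in 837, SP41 on native DNA had 49.4 and 86.7%, EGR on amplified DNA 89.8 and 66.7%, and the distances were 31 and 30 bp.

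The amplified lists alone gave 1380 regions (28.6% of GLI regions), 433 with EGR and SP41, 170 with EGR and 777 with SP41, and distances of 27 and 27 bp. The native lists alone gave 763 regions with SP41 without EGR and distances of 44 and 50 bp. Without the SP41 DBD lists, 25.6% of GLI regions were shared, with 1127 for EGR and 616 for SP41, an SP41 share on native DNA of 78.0% with GLI on native DNA only and a distance to SP41 of 37 bp. Without the SP41 full length lists 31.5% were shared, and with NRF and YY1 regions kept 45.9%. An overlap of at least 50 bp gave a distance to SP41 of 38 bp, and leaving out regions wider than 1000 bp gave 37 bp to either partner. The distance from EGR to SP41 was 18 to 35 bp over the alternatives. Regions in all 8 lists numbered 80 at a −log10 q of at least 5, 1 at a fold enrichment of at least 5, 66 with equal lists and 207 with NRF and YY1 regions kept. Those in all lists but GLI on amplified DNA numbered 200, 12 and 111 in the first 3 of these. The values not given here stayed within the interval of the value reported or within 1.5 times the count. The random down-sampling was not varied.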
